A study of Rattus norvegicus with 60 samples.

Results

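Glial and Schwann cell transcripts of the rat dorsal root ganglion were followed through 4 genes, listed by Ensembl identifier and given the symbols Gfap (ENSRNOG00000002919), S100b (ENSRNOG00000001295), Mbp (ENSRNOG00000016516) and Vim (ENSRNOG00000018087). They were chosen by name as genes of satellite glia and Schwann cells, 4 of the 23918 identifiers in the mRNA count files, and the rule used no measured value. Earlier results of these data were known when they were chosen. Neither the count files nor the reference table used here pairs Ensembl identifiers with symbols, so the 4 symbols come from the list itself. The ganglia came from SD rats injected under the skin of the foot on 1 side with 0.1 mL of complete Freund's adjuvant (CFA), an oil suspension of killed mycobacteria that causes lasting inflammation, and from untreated rats. Poly-A mRNA was sequenced in 10 CFA and 10 control libraries. The labels give no sex, age, time after injection or ganglion level, and do not say whether the untreated rats received a vehicle injection. The series also holds small RNA and bisulfite libraries, which were not used here.

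Satellite glia wrap the cell bodies of sensory neurons, and Schwann cells ensheath or myelinate the axons that run through the ganglion. Gfap and Vim encode type III intermediate filament proteins. Gfap is the classical filament of reactive glia and is known to rise in satellite glia after nerve injury or inflammation, while Vim is shared by glia, fibroblasts and vessel cells. S100b encodes a calcium-binding protein carried by both satellite glia and Schwann cells, and Mbp encodes myelin basic protein, which compacts the myelin sheath. In whole tissue, fewer cells of a type and less RNA per cell cannot be told apart. Markers of neurons, macrophages, vessels, fibroblasts, muscle and blood were not analysed here, because their identifiers could not be named, so their part in the values below was not tested.

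The promoters of the 3 genes that co-varied most clearly below, Gfap, Mbp and Vim, are shown to place the sequence beside that result. All 4 symbols were matched in the RefSeq promoter table of build GRCr8, which gives 250 bases before and 50 bases from the first transcribed base, 300 in all. The sequences run 5′ to 3′ on the gene's strand, and capitals mark the matches found. For Mbp the table lists a pair of starts, and the downstream window is shown because it held a match. The windows lie at chr10:88361612-88361911 on the minus strand for Gfap, chr18:78209995-78210294 on the plus strand for Mbp and chr17:81577011-81577310 on the plus strand for Vim.
Gfap: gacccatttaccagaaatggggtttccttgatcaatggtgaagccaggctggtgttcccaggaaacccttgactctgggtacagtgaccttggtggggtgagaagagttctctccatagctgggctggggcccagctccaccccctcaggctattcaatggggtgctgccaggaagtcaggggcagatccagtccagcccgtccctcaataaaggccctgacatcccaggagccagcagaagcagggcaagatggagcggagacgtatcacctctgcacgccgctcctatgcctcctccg
Mbp: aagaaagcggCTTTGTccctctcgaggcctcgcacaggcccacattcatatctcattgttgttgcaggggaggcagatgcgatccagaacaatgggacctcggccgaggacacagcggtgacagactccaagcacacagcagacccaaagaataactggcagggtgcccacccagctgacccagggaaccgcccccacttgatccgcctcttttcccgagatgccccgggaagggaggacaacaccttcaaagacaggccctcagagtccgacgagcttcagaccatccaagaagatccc
Vim: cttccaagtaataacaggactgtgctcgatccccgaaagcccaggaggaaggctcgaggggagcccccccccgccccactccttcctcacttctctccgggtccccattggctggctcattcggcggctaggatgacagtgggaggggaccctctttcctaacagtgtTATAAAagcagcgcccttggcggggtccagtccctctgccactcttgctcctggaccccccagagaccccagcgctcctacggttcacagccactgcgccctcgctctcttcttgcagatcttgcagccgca
Each window was searched on both strands for 4 motifs, where N is any base. The AP-1 motif, named in the series title, was taken as TGANTCA. Factors of the STAT family were represented by the motif TTCNNNGAA. For the SOX family, which holds regulators of glial genes, the letters searched were ACAAAG. The TATA box was searched as the letters TATAAA. The Vim window held TATAAA starting at base -82, and the downstream Mbp window held CTTTGT, the reverse complement of ACAAAG, starting at base -240. The other 3 windows, of Gfap, S100b and the upstream Mbp start, held no match to any of the 4 motifs. Of 33469 promoters of this length in the table, 7.33% held the AP-1 motif, 8.87% the STAT motif, 18.8% the SOX motif and 14.2% the TATA box. The windows of S100b and Gfap had 54.0% and 58.7% G or C bases, those of Vim and the Mbp starts between 58.3% and 65.0%, against a median of 51.7% over all promoters. Matches of this kind describe letters in a window and were not tied to binding.

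The mRNA libraries held 16843110 to 21611397 counts in CFA and 15607906 to 18950668 in controls. All 4 genes passed the filter on low counts, together with 15120 others, and counting error was small beside the spread between libraries. At its lowest count of 106, in control 1, Gfap carried a counting error of 9.71%, and for S100b, Mbp and Vim the error at the lowest count was between 0.614% and 1.02%. Library CFA 3 stood apart on the first principal component of all tested genes, which held 40.5% of the variance, at -107 against -60.7 for the next library, control 10. Results that rest on CFA 3 are given with and without it.

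The first question was whether the glial genes differed between the ganglia of CFA-injected and untreated rats. None of the 4 passed the edgeR quasi-likelihood test once p-values were adjusted by Benjamini-Hochberg over 15124 genes, against 5 genes called in all, or 0.0331%, each higher in CFA. Unadjusted p-values under 0.05 were found for 314 genes, or 2.08%, and for 0 of the 4 in this fit; DESeq2 also called 0 of the 4. Levels are in CPM, the count of a gene per 1000000 counts of its library, scaled by trimmed mean of M-values (TMM) factors, and log2 fold changes are CFA minus control. The median log2 fold change of the 4 genes was 0.014, against 0.015 over all genes tested.

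**Figure D1:**
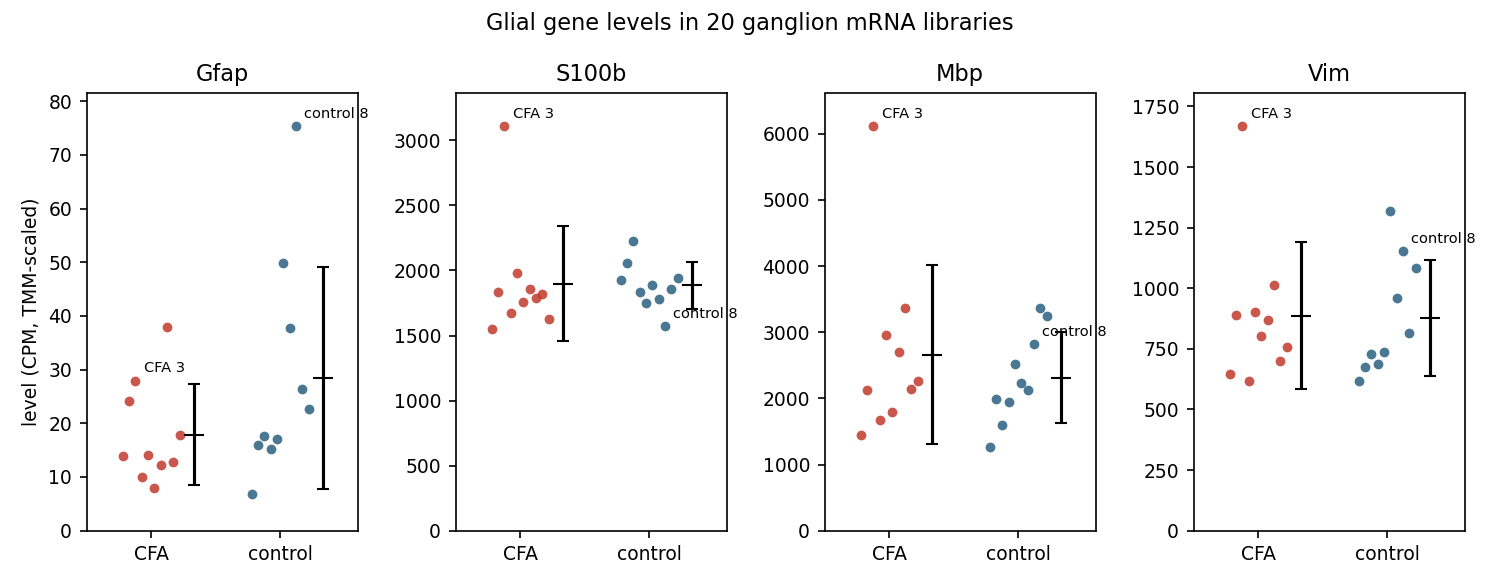
Levels of Gfap, S100b, Mbp and Vim in CPM (TMM-scaled, linear axes from 0) in 10 CFA and 10 control libraries; each point is a library, and the black bar gives the mean and SD of the group. The groups overlap for all 4 genes; CFA 3 is the highest library for S100b, Mbp and Vim (6118 CPM for Mbp), and control 8 the highest for Gfap (75.4 CPM).

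Gfap, the filament of reactive glia, had the lowest counts of the 4 and the widest spread. Its level lay between 7.91 and 38.0 CPM in CFA libraries, with a median of 14.0, against 6.87 to 75.4 CPM in control libraries, with a median of 20.1. Every CFA library lay within the control range, while 2 controls, 6 and 8, stood above every CFA library and control 1 below all of them. The means were 17.9 ± 9.39 CPM in CFA and 28.4 ± 20.6 CPM in controls (SD, n = 10 each). The log2 fold change was -0.67 (SE 0.36, 95% interval -1.42 to 0.075, edgeR p = 0.0755, adjusted p = 1.00). The interval reached from 0.374-fold to 1.05-fold, which includes both a fall of over 2-fold and no difference. On the log2 CPM scale the means differed by -0.52 (two-sided permutation test with 100000 resamples, p = 0.188). The sign was negative in all 20 fits that left out a library, with a log2 fold change of -0.38 without control 8, the library with the highest level, and -0.87 without CFA 8, at 38.0 CPM (unadjusted edgeR p = 0.256 and 0.0240). Without control 1, the lowest library, it was -0.79 (unadjusted edgeR p = 0.0292). The difference was larger with sample quality weights in limma, at -1.10 (unadjusted p = 0.00352, adjusted p = 0.399). It was -0.82 in edgeR with 2 surrogate variables as covariates (unadjusted p = 0.00765, adjusted p = 0.556), and -1.01 in edgeR without CFA 3 and controls 1, 3 and 10 (unadjusted p = 0.0174, adjusted p = 1.00). Those 4 libraries, control 1 among them, had the lowest quality weights (0.114 to 0.343). Leaving them out and weighting by quality thus discount the same libraries and are not separate checks. The direction was thus the same in every setting run, and the adjusted p passed in none.

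S100b, the calcium-binding protein of both glial types, was nearly level. It lay between 1549 and 3112 CPM in CFA libraries, with a median of 1801, against 1572 to 2230.2 CPM in control libraries, with a median of 1875. Of the CFA libraries, 8 of 10 lay within the control range, CFA 3 above it and CFA 1 below it. The log2 fold change was 0.011 (SE 0.10, 95% interval -0.20 to 0.22, edgeR p = 0.913, adjusted p = 1.00). The interval thus covered 0.871-fold to 1.17-fold, the narrowest of the 4. Without CFA 3 the log2 fold change was -0.095 (edgeR adjusted p = 0.956), and the means on the log2 CPM scale differed by -0.093 (permutation p = 0.121).

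Mbp, the myelin protein gene, lay between 1453 and 6118 CPM in CFA libraries, with a median of 2206, against 1266 to 3370.3 CPM in control libraries, with a median of 2182. The medians were close, and 8 of 10 CFA libraries lay within the control range, with CFA 3 and, narrowly, CFA 8 above it. The log2 fold change was 0.20 (SE 0.23, 95% interval -0.27 to 0.68, edgeR p = 0.384, adjusted p = 1.00). Without CFA 3 it was -0.023 (edgeR adjusted p = 0.990), and the CFA mean was 2277 ± 627 CPM in place of 2661 ± 1351 CPM, beside 2313 ± 683 CPM in controls.

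Vim, the filament gene shared with fibroblasts and vessels, lay between 619 and 1669.8 CPM in CFA libraries, with a median of 835, against 619 to 1318 CPM in control libraries, with a median of 775. CFA 3 was the 1 CFA library above every control, and the lowest libraries of both groups were nearly equal. The means were 887 ± 302 CPM in CFA and 877 ± 238 CPM in controls (SD, n = 10 each). The log2 fold change was 0.016 (SE 0.17, 95% interval -0.34 to 0.37, edgeR p = 0.927, adjusted p = 1.00), and -0.13 without CFA 3 (edgeR adjusted p = 0.956).

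**Figure D2:**
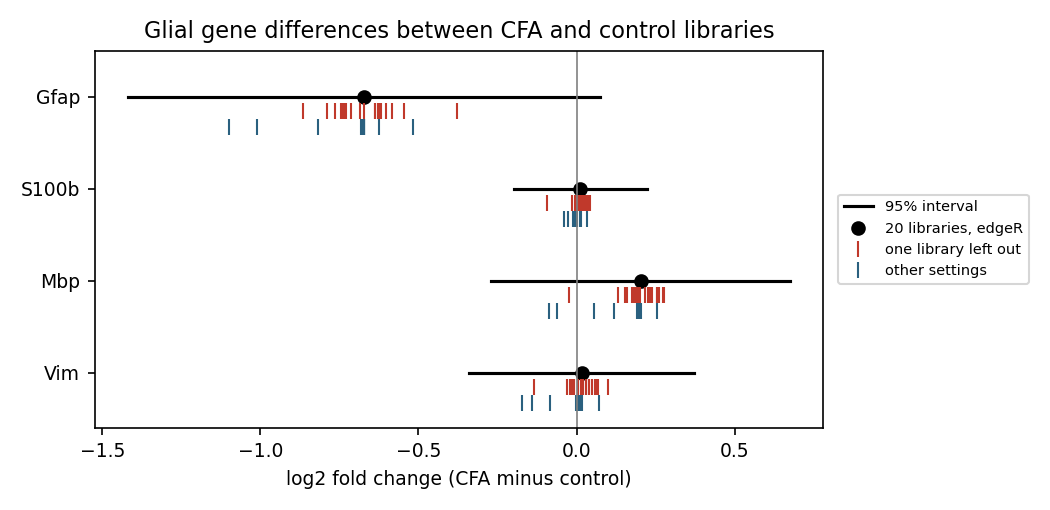
Log2 fold change (CFA minus control) of each gene with its 95% interval in black from edgeR on 20 libraries, the values with 1 library left out in red, and those of the other settings in blue. The Gfap values lie between -1.10 and -0.38, all below 0, while those of S100b, Mbp and Vim lie on both sides of 0 and all 4 intervals include 0.

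A ratio of 2 genes within a library does not depend on depth or scaling, and it was compared between groups for all 6 pairs. The mean ratio of Gfap to each of the others was lower in CFA libraries, but no pair passed after adjustment over the 6. The log2 ratio of Gfap counts to Mbp counts averaged -7.24 ± 0.55 in CFA and -6.58 ± 0.79 in controls (SD, n = 10 each), a difference of -0.66 (permutation p = 0.0457, adjusted p = 0.212). For Gfap to Vim it averaged -5.72 ± 0.53 in CFA and -5.20 ± 0.68 in controls, a difference of -0.52 (permutation p = 0.0707, adjusted p = 0.212). For Gfap to S100b the difference was -0.51 (permutation p = 0.209, adjusted p = 0.418). For the myelin gene Mbp to the filament gene Vim it averaged 1.52 ± 0.25 in CFA and 1.38 ± 0.38 in controls. That was a log2 difference of 0.13 between groups (permutation p = 0.365, adjusted p = 0.547). The ratios of S100b to Mbp and to Vim differed by -0.15 and -0.013 (permutation p = 0.476 and 0.936).

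The second question was how far the genes varied among libraries of the same kind. Gfap varied most, with a coefficient of variation of 52.5% in CFA and 72.6% in control libraries. The biological coefficient of variation, edgeR's estimate of the spread beyond counting error within groups, was 54.4% for Gfap, against a median of 19.8% over all genes tested. Among the 1000 tested genes closest in mean count level, Gfap had a spread at or above that of 98.5%. Mbp followed, with a biological coefficient of variation of 35.5% at the 95.4th percentile of its 1000 neighbours in level. Vim stood at 27.1% and the 87.2th percentile.

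S100b was the steadiest of the 4, with a biological coefficient of variation of 16.8%, at the 57.6th percentile of its neighbours in level. Its coefficient of variation was 23.3% in CFA and 9.44% in control libraries, and 7.40% over the 9 CFA libraries without CFA 3. Leaving out CFA 3 also lowered that of Mbp in CFA to 27.5%, against 50.8% with it, and that of Vim to 16.5%, against 34.02% with it. Gfap differed in this respect, with 55.0% without CFA 3 and 52.5% with it. Without control 8, its coefficient of variation in controls was 56.7%.

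**Figure D3:**
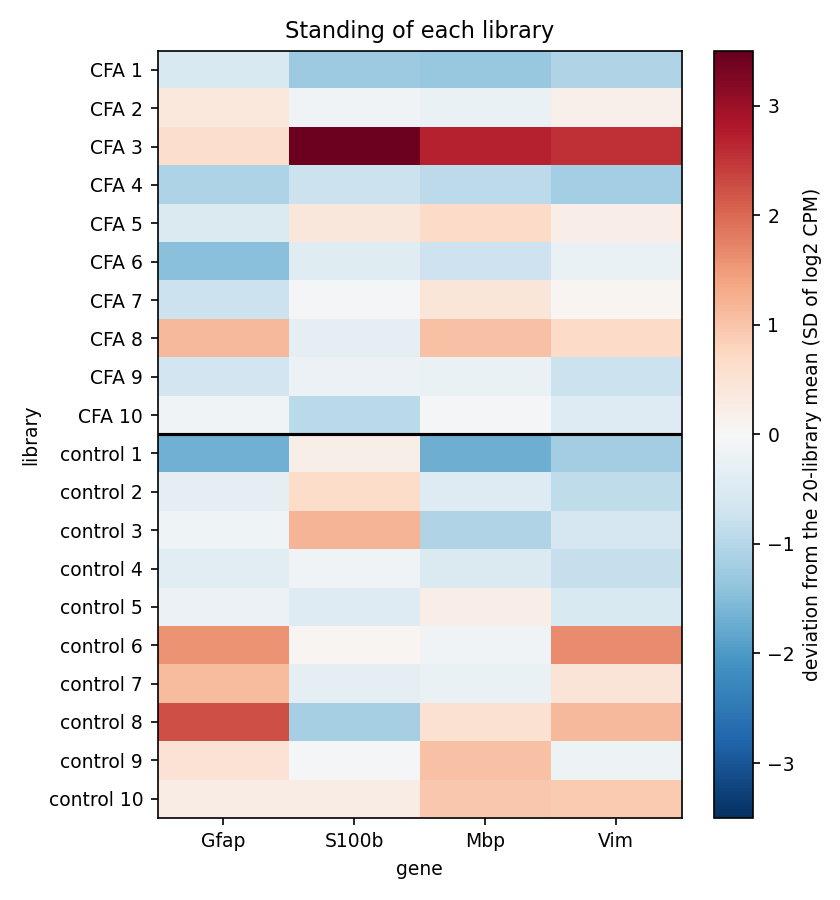
Deviation of each library from the mean of all 20, in SD of log2 CPM, for the 4 genes, with 10 CFA libraries above and 10 control libraries below the black line. CFA 3 is 3.44 SD above the mean for S100b, 2.701 for Mbp and 2.55 for Vim but 0.617 for Gfap; control 8 is 2.26 SD above for Gfap and 1.17 SD below for S100b.

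The third question was whether the genes rose and fell together over the 20 libraries. Mbp and Vim did, with a Pearson r of 0.78 (permutation p = 9.0e-05, adjusted p = 0.00054 over 6 pairs) and a Spearman rho of 0.77 (permutation p = 0.00017). Gfap and Vim did as well, with r of 0.72 (permutation p = 0.00054, adjusted p = 0.00162) and rho of 0.77 (permutation p = 0.00021). For the 2 genes of filament proteins the highest libraries were control 8 for Gfap and CFA 3 for Vim, while control 1 and CFA 4 were low for both. Without the pair of libraries farthest from the median of the first gene, r was 0.60 for Mbp and Vim and 0.63 for Gfap and Vim. Without CFA 3 alone, r was 0.65 and 0.80 for these pairs, and both stayed past the threshold each time 1 of the 20 libraries was left out. Without CFA 3 and controls 1, 3 and 10 together, r was 0.54 for Mbp and Vim, which no longer passed (adjusted permutation p = 0.0922) although a rho of 0.65 did (adjusted permutation p = 0.0224), and 0.80 for Gfap and Vim (adjusted permutation p = 0.00204).

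The relation of Gfap with Mbp was weaker, with r of 0.52 (permutation p = 0.0191, adjusted p = 0.0382) and rho of 0.59 (permutation p = 0.00739). It was 0.56 without CFA 3 and 0.62 without controls 6 and 8, which lay farthest from the median of Gfap. Without control 1, the lowest library for both genes, r was 0.43 and no longer passed (adjusted p = 0.0806), and without CFA 4 it was 0.49 (adjusted p = 0.0643).

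The relations of S100b depended on CFA 3. Over 20 libraries its r was 0.51 with Mbp (permutation p = 0.0329, adjusted p = 0.0440) and 0.48 with Vim (permutation p = 0.0367, adjusted p = 0.0440), but rho was 0.18 and 0.19 (permutation p = 0.432 and 0.428). Without CFA 3 the r values were -0.0061 and -0.0053, so the pooled relations rest on that library. They also lay close to the threshold. With Mbp the call was lost without CFA 1, CFA 4, CFA 5 or control 10 (permutation test, adjusted p = 0.0508 to 0.0746), and with Vim without CFA 1, CFA 4, CFA 5, CFA 10, control 5 or control 10 (permutation test, adjusted p = 0.0506 to 0.0746). With Gfap, r was 0.022 (permutation p = 0.924).

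These values were also set against all other tested genes. Vim had an r over 0.5 with 17.05% of the 15123 other genes, and 1.93% of them had a higher r with Vim than Mbp had. With Gfap, 7.02% of genes had an r over 0.5 and 0.866% a higher r than Vim. Seen from Vim, 4.40% of genes had a higher r than Gfap. The other called pairs stood less high among all genes. A higher r with Gfap than that of Mbp was found for 6.07% of genes, and a higher r with Mbp than that of Gfap for 16.6%. With S100b, 18.8% of genes had a higher r than Mbp and 20.6% a higher r than Vim. The highest r with Vim among genes of at least 10 CPM was that of ENSRNOG00000006472, at 0.95, and the highest with Mbp that of ENSRNOG00000000168, also at 0.95; these identifiers could not be named here. Genes measured in the same libraries share depth, scaling and tissue make-up, and the ranks describe these libraries.

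**Figure D4:**
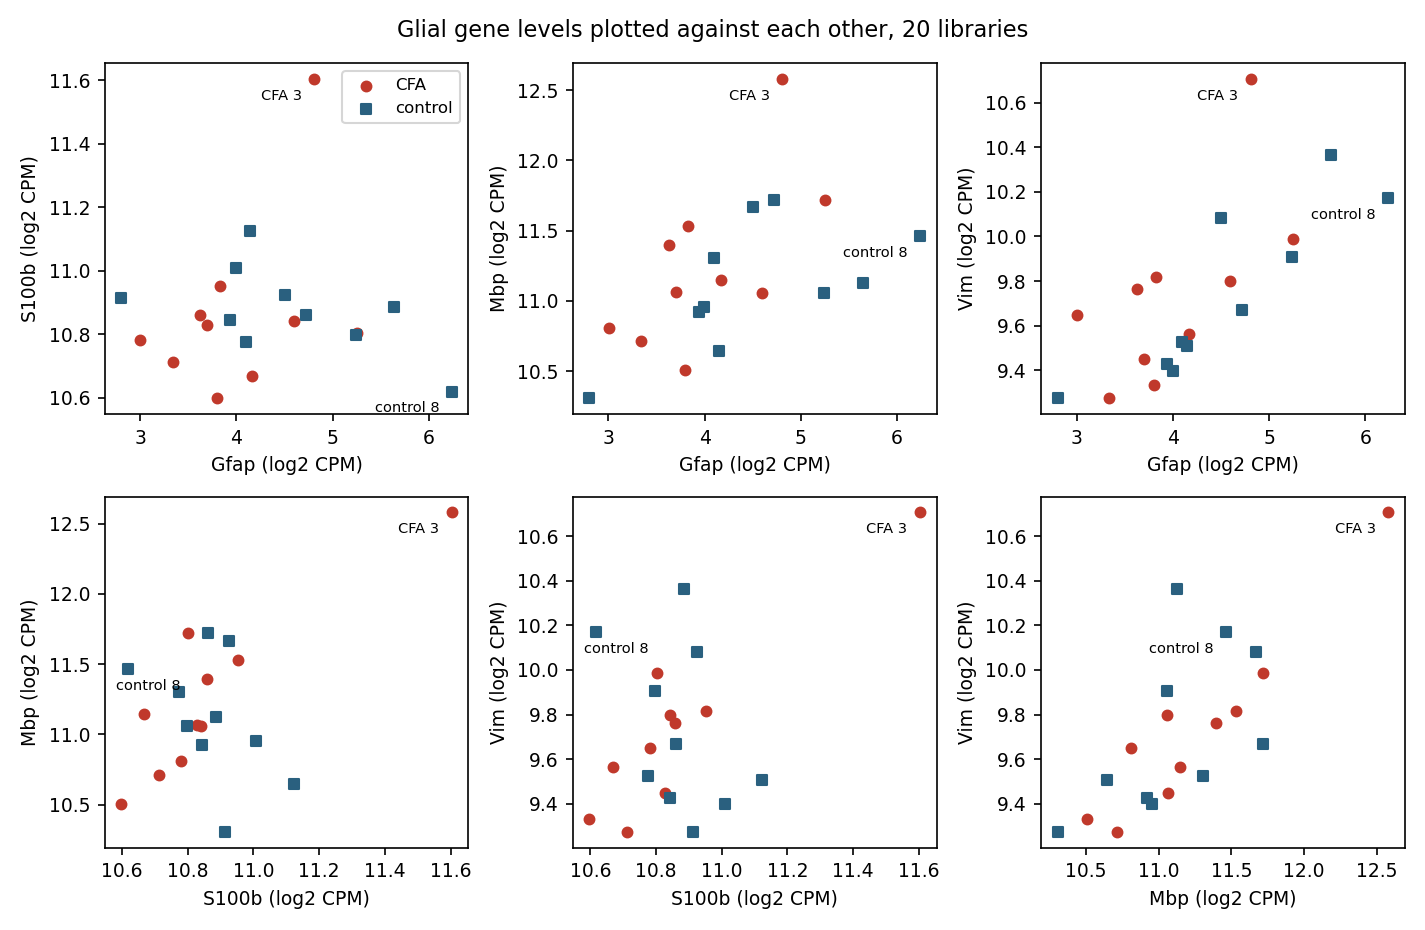
Log2 CPM of each pair of genes plotted against each other, 1 point per library, CFA as red circles and control as blue squares. Vim rises with Mbp and with Gfap over the 20 libraries (r of 0.78 and 0.72). In the 10 controls alone, r of Vim with Mbp is 0.57 (permutation p = 0.0856). Over the 19 libraries without CFA 3, r of S100b with Mbp and with Vim is -0.0061 and -0.0053.

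Within the groups, r of S100b with Mbp and with Vim was above 0 in CFA libraries and below 0 in controls. In the 10 CFA libraries, r was 0.95 for Mbp and Vim, 0.91 for S100b and Vim, and 0.89 for S100b and Mbp (permutation p = 0.00020, 0.00266 and 0.00206). Over the 9 CFA libraries without CFA 3 these were 0.85, 0.67 and 0.69 (exact permutation p = 0.00461, 0.0494 and 0.0375), and with adjustment over 6 pairs Mbp with Vim passed (adjusted exact permutation p = 0.0276) and the others did not (adjusted exact permutation p = 0.0987 each). In the 10 control libraries, r was 0.57 for Mbp and Vim, -0.41 for S100b and Vim, and -0.46 for S100b and Mbp (permutation p = 0.0856, 0.239 and 0.183). The difference in r between the groups was not tested.

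The same 3 genes moved with the first principal component, the axis on which CFA 3 stood apart. With the axis turned so that CFA 3 lies at its high end, r over 20 libraries was 0.72 for S100b, 0.64 for Mbp and 0.64 for Vim (permutation p = 0.00340, 0.00442 and 0.00358, adjusted p = 0.00589 each over 4 genes). For Gfap it was 0.23 (permutation p = 0.316). By rank the relations did not pass, with a Spearman rho of 0.43 for S100b, 0.37 for Mbp and 0.43 for Vim (permutation p = 0.0620, 0.109 and 0.0579). In CFA libraries r was 0.87 for S100b, 0.87 for Mbp and 0.95 for Vim, against 0.27, 0.17 and 0.12 in controls. Without CFA 3 and control 10, the libraries farthest along the axis, r over the others was 0.32, 0.19 and 0.25, so the pooled relations rest on those libraries. The component was computed from all tested genes, these among them, and held 40.5% of the variance. It was taken up after seeing the data, so its p-values are a description of these libraries and not a separate test. How many other genes had such an r with it was not counted, so the values are not shown to be particular to these genes. The part of this axis in the co-variation of the genes was not tested.

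Gfap and Vim varied together in both groups, with r of 0.64 in CFA (permutation p = 0.0408, adjusted p = 0.0489) and 0.87 in controls (permutation p = 0.00054, adjusted p = 0.00324). The CFA value did not pass by rank (rho 0.68, permutation p = 0.0341, adjusted p = 0.0512), nor over the 9 CFA libraries without CFA 3, where r was 0.61 (exact permutation p = 0.0817, adjusted p = 0.114). When each library was left out in turn, the CFA value lay between 0.59 and 0.71, and the control value between 0.86 and 0.93. For Gfap with Mbp, r was 0.65 in CFA and 0.60 in controls (permutation p = 0.0393 and 0.0625, adjusted p = 0.0489 and 0.145), and 0.59 in CFA without CFA 3 (exact permutation p = 0.0951, adjusted p = 0.114). With Gfap, S100b had r of 0.41 in CFA and -0.55 in controls (permutation p = 0.260 and 0.0968), and -0.24 in controls without control 8. With the group means taken out, r over 20 libraries was 0.75 for Gfap and Vim, 0.79 for Mbp and Vim and 0.60 for Gfap and Mbp.

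**Figure D5:**
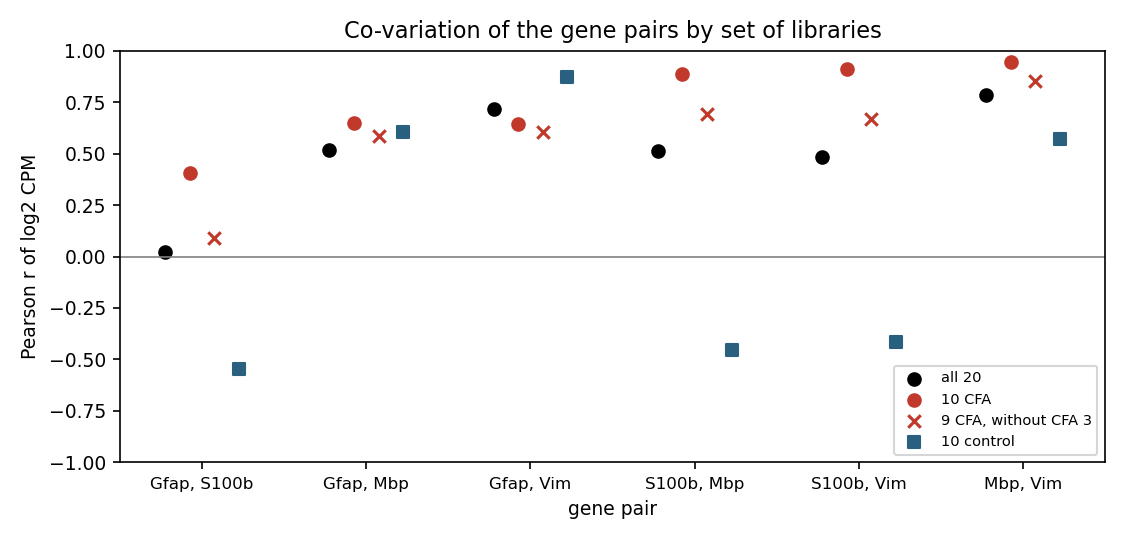
Pearson r of log2 CPM for the 6 gene pairs over all 20 libraries, the 10 CFA libraries, the 9 CFA libraries without CFA 3 and the 10 control libraries. The pairs of Gfap, Mbp and Vim lie above 0 in each set (0.52 to 0.95), and the pairs with S100b lie below 0 in controls (-0.55 to -0.41).

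Properties of the libraries were set beside these levels in 12 relations. S100b rose with the share of counts held by the 50 most counted genes, with r of 0.65 (permutation p = 0.00114, adjusted p = 0.0137) and rho of 0.64 (permutation p = 0.00302). This r was 0.62 without the 2 libraries farthest from the median share, 0.75 in CFA and 0.62 in controls. Levels were TMM-scaled here, and the relation was not computed on total counts. Whether S100b is itself among those 50 genes was not determined. Mbp was among them in CFA 3, where it held 5815 of every 1000000 counts and the 50 together held 21.7%. The r of Mbp with that share is thus in part with itself. None of the other 11 relations over 20 libraries, with total count, number of genes with a count, or that share, passed after adjustment. Some had opposite signs within the groups. With that share, r was 0.75 in CFA and -0.46 in controls for Mbp, and 0.65 and -0.51 for Vim. For Gfap it was 0.21 and -0.65. With the number of genes with a count, r was -0.37 in CFA and 0.50 in controls for Mbp, and -0.42 and 0.52 for Vim. Relations within groups were not tested. For Gfap, r with the number of genes with a count was 0.23 over 20 libraries, -0.23 in CFA and 0.80 in controls. CFA libraries held more counts than controls, at 24.14 ± 0.12 and 23.99 ± 0.092 on the log2 scale (SD, n = 10 each, permutation p = 0.00613), whereas the share of the 50 most counted genes was 19.7 ± 0.976% in CFA and 20.2 ± 1.07% in controls (permutation p = 0.337).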

How the data were processed

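Poly-A mRNA of dorsal root ganglia was sequenced in 10 CFA and 10 control libraries. Per the file headers, the deposited values are raw counts for 23918 Ensembl genes. STAR 2.7.0, cutadapt 2.1.0 and build rn4 stand among those in the submitters' processing notes, which assign no steps. Overlapping genes are uncertain, with counting rule and strand not given in the sources used here. Rats were chosen in 10 pairs, per the labels, which do not tie library numbers to them. Counts of CFA 9 and CFA 10, the most alike pair within a group, still differed by more than counting noise (chi-square per degree of freedom 9.92). P-values measure the spread between libraries, as nothing states how many ganglia or rats each holds.

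The test across genes was that of edgeR 4.0.16 in R 4.3.3 (TMM, filterByExpr, robust quasi-likelihood F test, threshold 0.05) over 15124 genes. Log2 CPM used a prior count of 2. Correlations, log2 ratios and single levels were tested by two-sided permutation with 100000 resamples in Python 3.11.15, or exactly over 9 libraries. On simulated counts, the test recovered 43 of 67 genes changed 1.5-fold, 53 of 67 changed 2-fold and 63 of 66 changed 4-fold, among 15124. It also called 5 unchanged genes. The changed genes were drawn at random, so recovery for genes as variable as Gfap or Mbp was not measured. Counts were simulated independently for each gene, with no library standing apart as CFA 3 does. Same-numbered libraries did not deviate together. Alternatives were DESeq2 1.42.0, sample quality weights (limma 3.58.1), sva 3.50.0 with 2 surrogate variables, other scalings and filters, the replicate number as a block and left-out libraries. The 9 CFA libraries without CFA 3, within-group left-out libraries and the first principal component were added after seeing the data. The genes and lists were chosen with earlier results of these data known. All 4 genes are named whatever their values, and at most 2 other identifiers. Cell type lists were planned but 0 identifiers matched the reference table (GRCr8 RefSeq), so they were not analysed here.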

Additional observations from a re-analysis of the deposited data

Results flagged for a closer look

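In groups of 10 libraries, the gap between an extreme library and its neighbour was compared with the range of the group (Dixon's test at its 95% critical value), for the 4 genes and their 6 ratios in each group, 20 groups in all. Chance flags about 1 in 20 groups, and 2 were flagged, both in CFA 3. S100b stood at 11.60 log2 CPM in CFA 3, or 3112 CPM, against at most 1981 CPM in the other 9 CFA libraries. Vim stood at 10.71 log2 CPM in CFA 3, or 1669.8 CPM, against at most 1015 CPM in the other 9. The 2 flags share a library and are not independent.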

How the results depend on the processing

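All 4 genes stayed uncalled in every setting of the test across genes, and the log2 fold change of Gfap stayed negative, from -1.10 with sample quality weights to -0.52 with the replicate number as a block (lowest adjusted p 0.399, lowest unadjusted p 0.00352, both with quality weights), and from -0.87 to -0.38 with single libraries left out. Without CFA 3 and controls 1, 3 and 10, the libraries of lowest quality weight, the mean log2 CPM of Gfap differed by -0.92 (permutation p = 0.0360, unadjusted). The cause was not tested. Signs near 0 turned. The log2 fold change of S100b was -0.0032 with DESeq2, -0.0029 with RLE factors, -0.0046 with upper-quartile factors, -0.0054 with the stricter filter, -0.011 with the replicate block, -0.028 with quality weights and -0.039 without CFA 3 and controls 1, 3 and 10. That of Vim was -0.0026 with the replicate block, -0.14 with quality weights, -0.085 with surrogate variables and -0.17 without those 4 libraries. That of Mbp was -0.061 with quality weights and -0.086 without those 4. Without them, mean log2 CPM differed by -0.12 for Mbp and -0.15 for Vim, and the log2 ratios of S100b to Mbp and to Vim by 0.071 and 0.11. Without CFA 9 and CFA 10, mean log2 CPM of S100b differed by 0.019. Over single left-out libraries, log2 fold changes ran from -0.095 to 0.041 for S100b, -0.023 to 0.28 for Mbp and -0.13 to 0.099 for Vim. Mean log2 CPM differences ran from -0.093 to 0.019, -0.011 to 0.22 and -0.11 to 0.072 for these 3 genes, and the ratio of S100b to Vim from -0.090 to 0.043.

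Of all tested genes, 5 were called higher and 0 lower. The counts were 2 higher with the replicate block and 4 higher with the stricter filter. They were 10 higher and 2 lower with surrogate variables, and 7 higher and 2 lower with quality weights. With DESeq2, without CFA 9 and CFA 10, or without CFA 3, 1 gene was called lower (0 to 1 over single left-out libraries). Same-numbered libraries had deviations correlated from -0.36 to 0.56, 3 of 10 over 0.1 and 1 of 10 CFA libraries closest to its own number, so the numbers were not taken as pairs.

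Correlations turned sign or lost their call as follows, Gfap with S100b having had none to lose. With RLE factors, r of S100b was 0.47 with Mbp and 0.47 with Vim. In controls alone, r was -0.55 for Gfap and S100b, 0.60 for Gfap and Mbp, -0.46 for S100b and Mbp, -0.41 for S100b and Vim and 0.57 for Mbp and Vim. Without CFA 3 and controls 1, 3 and 10, r was -0.12, 0.48, 0.28, 0.094 and 0.54 for these 5 pairs, whereas Gfap and Vim kept 0.80 (adjusted p = 0.00204). Without CFA 9 and CFA 10, r was 0.52 for Gfap and Mbp, 0.52 for S100b and Mbp and 0.47 for S100b and Vim. Without the 2 libraries farthest from the median of S100b, its r was 0.18 with Mbp and 0.082 with Vim. In the 9 CFA libraries without CFA 3, r was 0.59 for Gfap and Mbp, 0.61 for Gfap and Vim, 0.69 for S100b and Mbp and 0.67 for S100b and Vim. Over single left-out libraries, r ran from -0.16 to 0.21 for Gfap and S100b, 0.43 to 0.57 for Gfap and Mbp, -0.0061 to 0.62 for S100b and Mbp and -0.0053 to 0.60 for S100b and Vim. Fewer libraries lower the power of these tests. Depth does not limit S100b, Mbp and Vim, and Gfap is limited by its spread rather than its counts.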
